A study of Lathyrus oleraceus with 4 samples.

Results

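The expression table of developing pea seeds was read here for 4 unigenes of 77269, which the study annotated as a cyclin D3, a homeobox protein 2 and an auxin efflux carrier. A unigene is a transcript sequence that the authors assembled from their reads. The cyclin D3 unigene is comp12259_c0_seq1 (1413 bp, annotated as CYCLIN D3;1), and the auxin efflux carrier unigene is comp13193_c0_seq1 (1392 bp). Homeobox protein 2 is represented by comp12639_c0_seq1 (743 bp) and comp12639_c0_seq2 (835 bp), both sequences of a single assembled component that share their best Medicago truncatula hit. The 4 unigenes were picked by their identifiers as regulators of the growth phase, with their values in these libraries already known. Their levels are therefore given as a description, without a test.

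D-type cyclins bind cyclin-dependent kinases and, in Arabidopsis, promote the passage of cells from the first gap phase into DNA synthesis, so that they link division to sugar and hormone supply. Homeobox genes encode transcription factors with a homeodomain, which act in the patterning of the embryo and in meristems. Auxin efflux carriers move auxin out of cells and thereby set its direction of flow and its local maxima in the embryo. The annotation of comp13193_c0_seq1, auxin efflux carrier family protein, names the family only, and the function of its product was not tested. In legume seeds a phase of cell division in the embryo comes before a phase of cell expansion and storage product accumulation.

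Seeds of the grain pea cultivar Zhongwan 6 and of the vegetable pea cultivar Zhewan 1, grown in the field, were compared at 25 and 10 days after pollination (DAP) and no treatment is named. The study describes 10 DAP as the stage of cell division and morphogenesis and 25 DAP as a stage of seed filling. For every cultivar at each stage there is 1 library, so 4 in all, made from whole seeds pooled from many plants, and the methods do not say how the 3 replicates they mention entered it. No difference given here has a replicate check, and the 95% intervals cover counting error only. Because the counted reads of each library outnumber its clean reads, some reads were counted on more than one sequence, and the intervals, which take reads as separate, are too narrow by an unknown amount. In whole seeds, fewer cells of a type and less RNA per cell cannot be told apart.

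Counted reads per library were 70912839 and 60861344 for Zhongwan 6 at 25 and 10 DAP, and 55819963 and 50086351 for Zhewan 1. RPKM, the reads scaled to unigene length and to the counted reads of the library, was used for levels. Across the 22135 unigenes that reached an RPKM of 1 in each library, the log2 ratio of 25 to 10 DAP had a median of -0.14 in Zhongwan 6 and 0.56 in Zhewan 1. Results that this shift touches are therefore also given after scaling by median ratios, which removes it. Of 10 unigenes with seed storage and maturation annotation, the oleosin comp11102_c0_seq1 and the unknown seed protein comp12618_c0_seq1 had an RPKM of at least 6.08 and 98.2 in every library, and the cupin comp13522_c0_seq1 one of at least 9.68. Oleosins coat the oil bodies of seeds, and many seed storage proteins are cupins. The summed RPKM of the 10 was 357.9 and 146.3 in Zhongwan 6 at 25 and 10 DAP, and 190.0 and 198.4 in Zhewan 1. In each library 1 or 2 of them were without a read, and only 3 or 4 reached an RPKM of 1. Without comp12618_c0_seq1, which held most of it, the sum was 34.0 and 48.1 in Zhongwan 6 and 24.6 and 30.4 in Zhewan 1, so that the direction in Zhongwan 6 rests on this unigene. By Fisher's exact test at a false discovery rate of 0.001 and 2-fold, 1 of the 10 was higher and 2 were lower at 25 DAP in Zhongwan 6, and 0 were higher and 2 lower in Zhewan 1. Of all unigenes tested, 9.08% were higher and 16.0% lower in Zhongwan 6, and 20.7% higher and 9.42% lower in Zhewan 1. With median-ratio scaling 1 of the 10 was higher and 1 lower in Zhongwan 6, beside 10.3% and 14.4% of all. In Zhewan 1, 0 were then higher and 2 lower, beside 12.5% and 13.8%.

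In both cultivars all 4 unigenes had their lower level at 25 DAP. Their RPKM ranged from 0.142 to 4.95, above the RPKM of 0.0299 to 0.0806 that 3 reads on them would give. Homeobox protein 2 seq1 at 10 DAP exceeded 82.7% of all unigenes in Zhongwan 6 and 83.0% in Zhewan 1, and the auxin efflux carrier at 25 DAP exceeded 31.0% and 23.0%, the ends of the range. The homeobox unigenes and the auxin efflux carrier were each at least 2-fold lower at 25 than at 10 DAP in both cultivars. Cyclin D3 was different, because its level at 25 DAP was much reduced in Zhewan 1 and little reduced in Zhongwan 6.

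**Figure D1:**
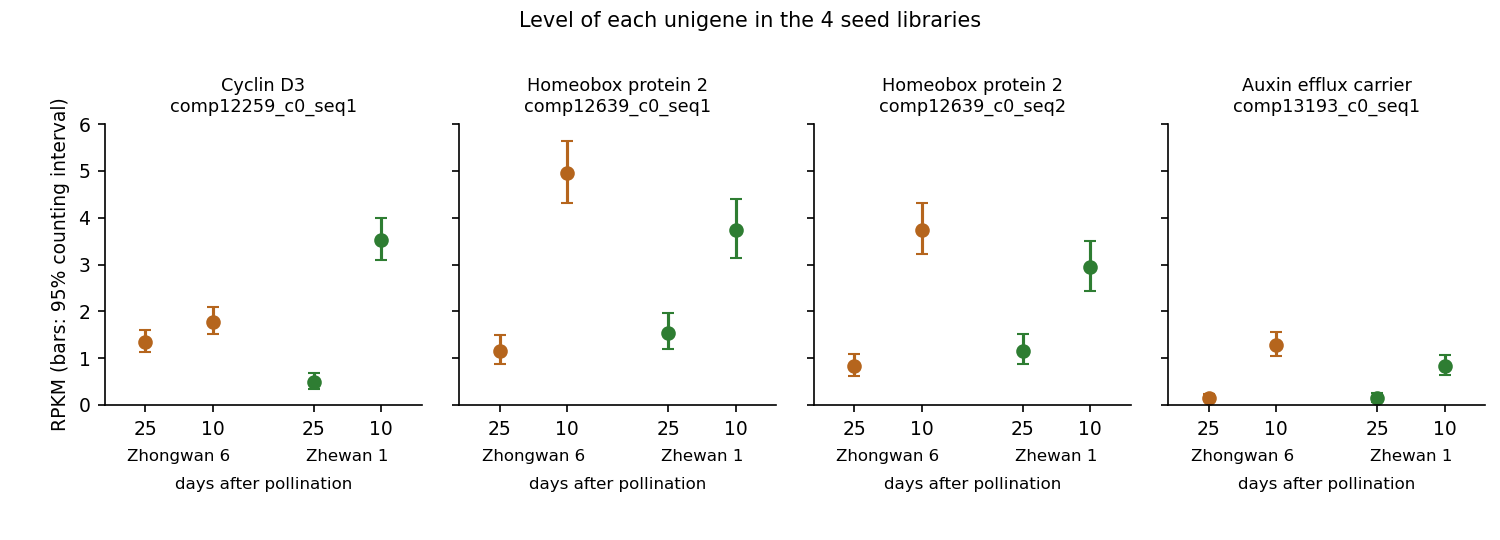
RPKM of each of the 4 unigenes in the 4 libraries, by cultivar and days after pollination, 1 point per library, with bars for the 95% exact Poisson interval of the read count. The homeobox and auxin efflux carrier unigenes are low at 25 DAP in both cultivars, while cyclin D3 spans 0.494 to 3.53 RPKM in Zhewan 1 and 1.35 to 1.78 RPKM in Zhongwan 6.

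Cyclin D3, the regulator of cell cycle entry, had 135 reads (25 DAP) and 153 reads (10 DAP) in Zhongwan 6, which are RPKM values of 1.35 (95% exact Poisson interval 1.13 to 1.59) and 1.78 (1.51 to 2.08). In Zhewan 1 it had 39 reads (25 DAP) and 250 reads (10 DAP), RPKM values of 0.494 (0.352 to 0.676) and 3.53 (3.11 to 3.999). The Zhewan 1 libraries thus hold both the lowest and the highest level of this unigene, with the Zhongwan 6 libraries between them. The interval of each step in that order excluded 1. The smallest was the 1.32-fold step between the Zhongwan 6 libraries (95% exact Clopper-Pearson interval 1.04 to 1.68). Since the intervals are too narrow, this smallest step is not shown to exceed counting error. With median-ratio scaling its interval included 1, with a ratio of 25 to 10 DAP of 0.837 (0.659 to 1.06).

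The ratio of 25 to 10 DAP for cyclin D3 was 0.757 in Zhongwan 6 (95% exact interval 0.596 to 0.961), and 0.140 in Zhewan 1 (0.0972 to 0.197), which is a 7.14-fold lower level (5.08 to 10.3). The ratio in Zhongwan 6 divided by the ratio in Zhewan 1 was 5.41 (conditional exact interval 3.54 to 8.36). With median-ratio scaling it was 8.84 (5.78 to 13.7), so that the difference was larger once the shift was removed. Among the 32662 unigenes with at least 10 reads in every library, whose median log2 value of this quotient was -0.81, 2.76% had a value as high as that of cyclin D3. In Zhewan 1, 6.38% of the 11483 unigenes with a similar number of reads (from 0.5 to 2 times as many in the pair of libraries) had a lower ratio, and in Zhongwan 6 this share was 44.5% of 10935. These shares describe where the unigene lies and are not a test, since it was chosen with its values known.

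The order of the cultivars for cyclin D3 turned with stage. At 25 DAP its RPKM was 1.35 in Zhongwan 6, against 0.494 in Zhewan 1, and that is a ratio of 2.72 (95% exact interval 1.90 to 3.998). At 10 DAP its RPKM was 1.78 in Zhongwan 6, against 3.53 in Zhewan 1, for a ratio of 0.504 (0.409 to 0.618), just short of 2-fold. With median-ratio scaling the ratios were 3.40 at 25 DAP and 0.384 at 10 DAP, and the second then passed 2-fold. The direction at both stages was the same under either scaling.

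Homeobox protein 2 seq1 had 61 reads (25 DAP) and 224 reads (10 DAP) in Zhongwan 6, RPKM values of 1.16 (95% exact Poisson interval 0.886 to 1.49) and 4.95 (4.33 to 5.65). In Zhewan 1 it had 64 and 139 reads, RPKM values of 1.54 (1.19 to 1.97) at 25 DAP and 3.74 (3.14 to 4.41) at 10 DAP. Both libraries of 25 DAP lay below both libraries of 10 DAP. How many of all unigenes show this was not counted, and this one was chosen with its values known. For scale, 7.42% of the 32662 unigenes with at least 10 reads in every library were at least 2-fold lower in RPKM at 25 DAP in both cultivars. This share was not computed with median-ratio scaling. The ratio of 25 to 10 DAP of homeobox protein 2 seq1 was 0.234 in Zhongwan 6 (95% exact interval 0.173 to 0.311) and 0.413 in Zhewan 1 (0.302 to 0.559).

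Homeobox protein 2 seq2 followed the same course at a slightly lower level. It had 49 reads (25 DAP) and 190 reads (10 DAP) in Zhongwan 6 (0.828 and 3.74 RPKM), and 54 and 123 reads in Zhewan 1 (1.16 and 2.94 RPKM). Its ratio of 25 to 10 DAP was 0.221 in Zhongwan 6 (95% exact interval 0.158 to 0.304) and 0.394 in Zhewan 1 (0.281 to 0.547), close to that of seq1. The change of seq1 divided by that of seq2 was 1.06 (0.677 to 1.65) in Zhongwan 6 and 1.05 (0.663 to 1.66) in Zhewan 1, so that no difference between the sequences was detectable. Any reads counted on both sequences draw these quotients towards no difference, so they cannot show that the sequences change alike.

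The split of the component's reads between the sequences was nearly the same in all libraries. Seq1 held 55.5% of 110 reads (95% Wilson interval 46.1% to 64.4%) in Zhongwan 6 at 25 DAP and 54.1% of 414 reads (49.3% to 58.8%) at 10 DAP. In Zhewan 1 it held 54.2% of 118 reads (45.3% to 63.0%) at 25 DAP and 53.1% of 262 reads (47.0% to 59.0%) at 10 DAP. The intervals of all libraries overlap. How many of these reads were counted on both sequences is not known, so the sequences are not separate observations of the gene.

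Summed over its sequences, homeobox protein 2 was 4.39-fold lower at 25 than at 10 DAP in Zhongwan 6 (95% exact interval 3.55 to 5.46) and 2.47-fold lower in Zhewan 1 (1.98 to 3.10). Any read counted on both sequences enters these sums more than once, so the intervals of the sums, and of their quotient, may be too narrow. The quotient of the ratios, Zhongwan 6 over Zhewan 1, was 0.564 (conditional exact interval 0.412 to 0.773), a deeper reduction in Zhongwan 6. With median-ratio scaling the quotient was 0.922 (0.674 to 1.26), and the difference between the cultivars was no longer detectable. The single sequences gave log2 quotients of -0.82 and -0.83, near the median of -0.81 over the 32662 unigenes, 49.6% and 49.2% of which were lower.

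Between the cultivars, the homeobox sequences differed little. Zhongwan 6 over Zhewan 1 gave at 25 DAP a ratio of 0.750 for seq1 (95% exact interval 0.520 to 1.08) and 0.714 for seq2 (0.475 to 1.07), within counting error, and of 0.734 (0.561 to 0.960) for their summed reads. With median-ratio scaling these were 0.935 (0.648 to 1.35), 0.891 (0.592 to 1.34) and 0.915 (0.699 to 1.20), so that the interval of the sum then included 1. At 10 DAP it was 1.33 (1.07 to 1.65) for seq1 and 1.27 (1.01 to 1.61) for seq2. With median-ratio scaling the ratios at 10 DAP were 1.01 (0.815 to 1.26) and 0.970 (0.769 to 1.23), so that the small excess in Zhongwan 6 depends on the scaling.

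The auxin efflux carrier had the lowest RPKM of the 4 unigenes at both stages in both cultivars. It had 14 reads (25 DAP) and 109 reads (10 DAP) in Zhongwan 6, RPKM values of 0.142 (95% exact Poisson interval 0.0775 to 0.238) and 1.29 (1.06 to 1.55). In Zhewan 1 it had 11 and 58 reads, RPKM values of 0.142 (0.0707 to 0.253) at 25 DAP and 0.832 (0.632 to 1.08) at 10 DAP. Both cultivars thus shared a low level at 25 DAP, several times above that of 3 reads. The level at 25 DAP was 9.07-fold lower than at 10 DAP in Zhongwan 6 (95% exact interval 5.18 to 17.1) and 5.88-fold lower in Zhewan 1 (3.05 to 12.4).

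The quotient of these ratios for the auxin efflux carrier, Zhongwan 6 over Zhewan 1, was 0.648 (conditional exact interval 0.255 to 1.69), and with median-ratio scaling it was 1.06 (0.417 to 2.76). A difference between the cultivars' stage changes was not detectable with these reads, and the interval leaves room for more than a 2-fold difference either way after scaling. Zhongwan 6 over Zhewan 1 gave at 25 DAP a ratio of 1.00 (0.423 to 2.44). At 10 DAP it was 1.55 (1.11 to 2.17), which with median-ratio scaling was 1.18 (0.851 to 1.65) and within counting error.

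**Figure D2:**
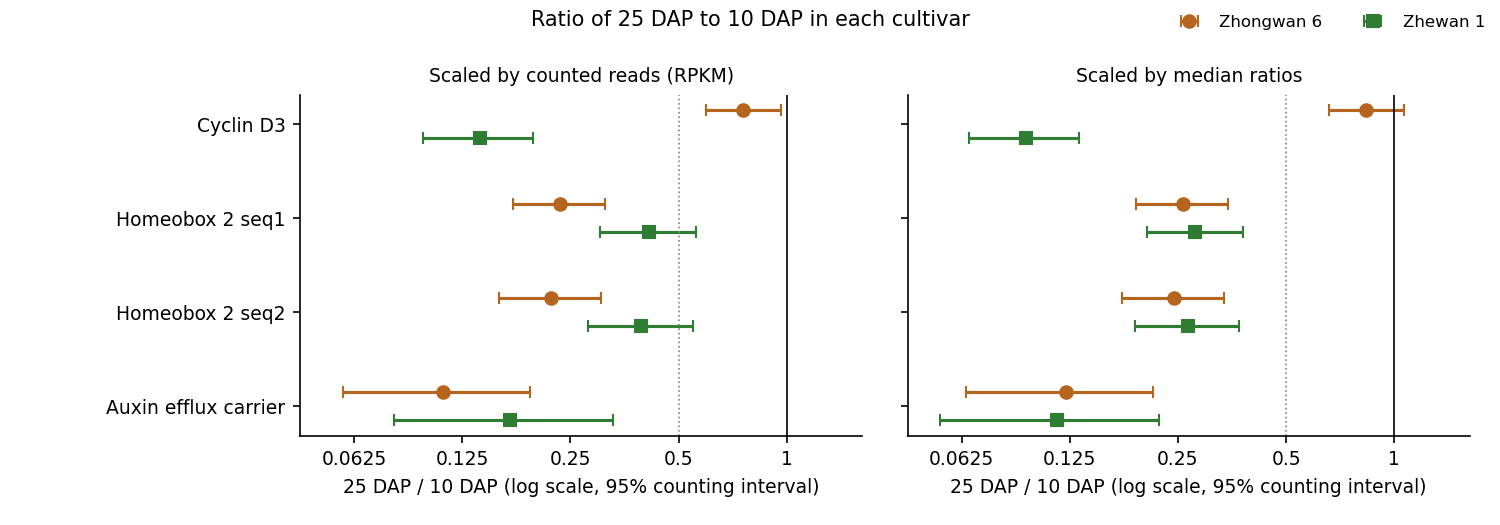
Ratio of 25 DAP to 10 DAP for each unigene in Zhongwan 6 (circles) and Zhewan 1 (squares) on a log axis, with 95% exact intervals, scaled by counted reads on the left and by median ratios on the right. The dotted line marks a 2-fold reduction and the solid line no change. The intervals of the cultivars are apart for cyclin D3 under both scalings, and those of the homeobox and auxin efflux carrier unigenes overlap.

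Counted together, 3 of the 4 unigenes were at least 2-fold lower at 25 DAP in Zhongwan 6, and 4 of 4 in Zhewan 1. Of all unigenes with at least 10 reads in the pair of libraries, 30.4% were at least 2-fold lower and 18.4% higher in Zhongwan 6, and 17.7% were lower and 40.4% higher in Zhewan 1. With median-ratio scaling the counts of the 4 were the same, and the shares were 27.7% lower and 20.4% higher in Zhongwan 6, and 25.0% lower and 28.1% higher in Zhewan 1. Between the cultivars, 1 of 4 was at least 2-fold higher in Zhongwan 6 at 25 DAP, against 11.2% of all unigenes higher and 26.7% lower, and 0 of 4 passed 2-fold at 10 DAP, against 7.81% lower and 25.8% higher. With median-ratio scaling 1 of 4 was higher at 25 DAP, against 14.7% higher and 19.4% lower, and 1 of 4, cyclin D3, was lower at 10 DAP, against 12.3% lower and 16.6% higher. Since the unigenes were chosen with these values known, nothing is read from these counts.

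The 4 unigenes also differed among themselves within a cultivar, in ratios of ratios that no library scaling can change. In Zhongwan 6 the ratio of 25 to 10 DAP of cyclin D3 was 3.24 times that of homeobox protein 2 seq1 (conditional exact interval 2.21 to 4.76) and 6.87 times that of the auxin efflux carrier (3.69 to 13.6). In Zhewan 1 it was 0.339 times that of homeobox protein 2 seq1 (0.210 to 0.543) and 0.822 times that of the auxin efflux carrier (0.384 to 1.89). Cyclin D3 therefore had the mildest reduction of the 4 in Zhongwan 6 and a deeper one than homeobox protein 2 in Zhewan 1. The ratio of homeobox protein 2 seq1 was 2.12 times (1.11 to 4.29) that of the auxin efflux carrier in Zhongwan 6 and 2.43 times (1.16 to 5.47) in Zhewan 1, the same order in both.

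The balance of levels per length shifted accordingly. The RPKM of cyclin D3 was 9.50 times that of the auxin efflux carrier at 25 DAP and 1.38 times at 10 DAP in Zhongwan 6, and 3.49 times at 25 DAP and 4.25 times at 10 DAP in Zhewan 1. Against homeobox protein 2 seq1 it was 1.16 times at 25 DAP and 0.359 times at 10 DAP in Zhongwan 6, and 0.320 times at 25 DAP and 0.946 times at 10 DAP in Zhewan 1. Cyclin D3 was above homeobox protein 2 seq1 in 1 of the 4 libraries, that of Zhongwan 6 at 25 DAP.

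**Figure D3:**
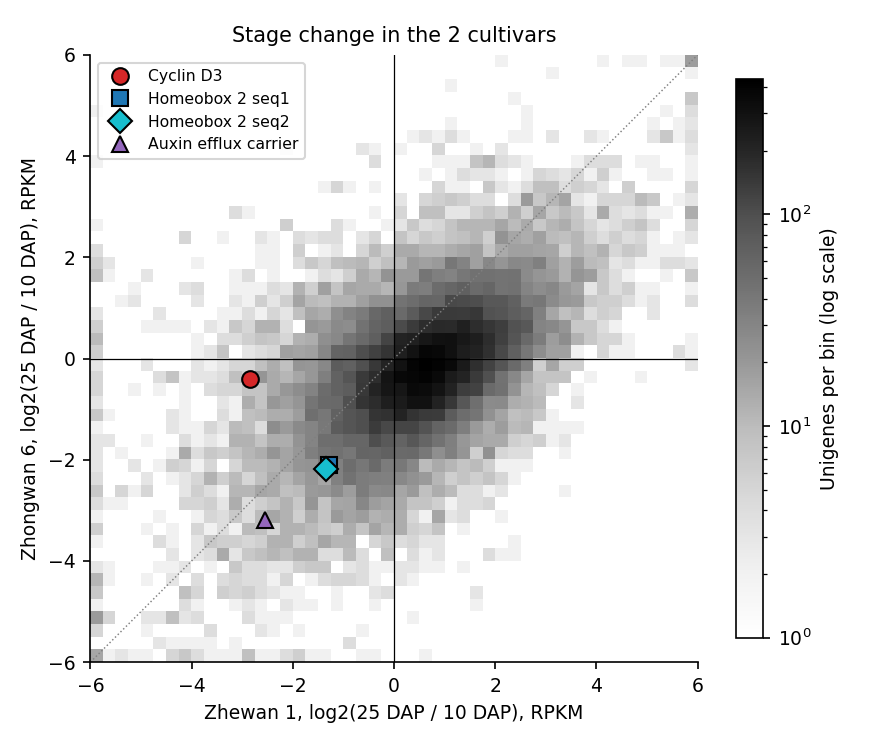
Log2 ratio of 25 DAP to 10 DAP (RPKM) in Zhewan 1 (horizontal) and Zhongwan 6 (vertical) for the 32662 unigenes with at least 10 reads in every library, as grey bins of unigene number, with the 4 unigenes marked and the dotted line at equal change; the 308 unigenes at or beyond 6 on either axis are drawn at the edge. Cyclin D3 lies above the dotted line at -2.84 and -0.40, and the homeobox and auxin efflux carrier unigenes lie below it.

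The 4 other cell cycle unigenes found in the readable part of the study's annotation, which covers 1121 of the 77269 unigenes, differed from cyclin D3 in their course. Calls for these lists used a Fisher's exact test of the reads of a pair of libraries, with a false discovery rate of 0.001 or less (Benjamini-Hochberg) and at least a 2-fold ratio, which compares libraries and not conditions. These are not the study's own calls, which were far fewer at the same thresholds. By the rule used here 9.08% of all unigenes tested were higher and 16.0% lower at 25 DAP in Zhongwan 6, and 20.7% were higher and 9.42% lower in Zhewan 1. With median-ratio scaling the shares were 10.3% higher and 14.4% lower in Zhongwan 6, and 12.5% higher and 13.8% lower in Zhewan 1. Of these 4, 2 were called higher and 1 lower at 25 DAP in Zhongwan 6, and 2 higher and 0 lower in Zhewan 1.

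Cyclin A3;4 (comp12883_c0_seq1), of a cyclin class that acts from DNA synthesis onward, had 37 and 0 reads in Zhongwan 6 at 25 and 10 DAP, and 112 and 23 reads in Zhewan 1. It was at least 10.6-fold higher at 25 DAP in Zhongwan 6, with 0 reads counted as 3, and 4.37-fold higher in Zhewan 1 (95% exact interval 2.77 to 7.17). Its direction with stage was thus opposite to that of cyclin D3 in both cultivars. The BUB1-related unigene (comp12112_c0_seq1), named after a kinase of the spindle checkpoint, had 21 reads (25 DAP) and 1 read (10 DAP) in Zhongwan 6, a ratio of 18.0 (2.90 to 745), and a ratio of 2.87 (1.38 to 6.55) in Zhewan 1.

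Of the 2 unigenes annotated only as cyclin family proteins, 1 was called lower at 25 DAP in Zhongwan 6 and the other was called higher in Zhewan 1. The more abundant, comp13445_c0_seq1, stood at 2.35 RPKM (25 DAP) and 6.11 RPKM (10 DAP) in Zhongwan 6, and at 5.11 and 2.63 RPKM in Zhewan 1. Its ratio of 25 to 10 DAP was 0.385 (95% exact interval 0.318 to 0.465) in Zhongwan 6 and 1.94 (1.57 to 2.42) in Zhewan 1, which is the reverse of cyclin D3's order of the cultivars. The other, comp10319_c0_seq1, had ratios of 0.660 (0.349 to 1.23) in Zhongwan 6 and 3.77 (1.86 to 8.42) in Zhewan 1; the second was no longer called with median-ratio scaling.

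The 6 DNA replication unigenes were split. In Zhongwan 6, 0 were called higher and 1 lower at 25 DAP, and in Zhewan 1, 2 were called higher and 1 lower. The one called lower in Zhongwan 6 was minichromosome maintenance 9 (comp13054_c0_seq1), with a ratio of 0.228 there (95% exact interval 0.134 to 0.373). It and comp13054_c0_seq2, also on the list, are sequences of a single component. Histone H2A 12 (comp13274_c0_seq1), a core component of chromatin, stood at 5.01 RPKM (25 DAP) and 4.14 RPKM (10 DAP) in Zhongwan 6, and at 15.3 and 3.99 RPKM in Zhewan 1. Thymidine kinase (comp12551_c0_seq1), which supplies a DNA precursor, was 5.45-fold higher at 25 DAP in Zhewan 1 (95% exact interval 3.86 to 7.90), and its ratio was 1.51 (0.939 to 2.47) in Zhongwan 6.

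Minichromosome maintenance 10 (comp13078_c0_seq1), a replication factor, was the one called lower in Zhewan 1 and had nearly the profile of cyclin D3. It had 62 and 70 reads in Zhongwan 6 at 25 and 10 DAP and 24 and 206 reads in Zhewan 1, so that its ratio of 25 to 10 DAP was 0.760 (95% exact interval 0.531 to 1.09) in Zhongwan 6 and 0.105 (0.0655 to 0.160) in Zhewan 1. Like cyclin D3 it had a ratio of Zhongwan 6 to Zhewan 1 below 1 at 10 DAP (0.280, 0.210 to 0.368, called lower) and above 1 at 25 DAP (2.03, 1.25 to 3.41, called higher only with median-ratio scaling). The listed cell cycle and replication unigenes therefore did not all follow cyclin D3.

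The 7 microtubule and kinesin unigenes, which serve the spindle and the division wall, were all under an RPKM of 1 in every library. At 25 DAP 0 were called higher and 1 lower in Zhongwan 6, and 2 higher and 0 lower in Zhewan 1. The most abundant was a di-glucose binding protein with a kinesin motor (comp10280_c0_seq1), with 11 and 36 reads in Zhongwan 6 at 25 and 10 DAP and 23 and 14 reads in Zhewan 1, and it was the one called lower in Zhongwan 6. A phragmoplast-associated kinesin (comp11932_c0_seq1) had 17 and 26 reads in Zhongwan 6 and 31 and 15 reads in Zhewan 1, with no call. Tubulin beta chain 3 (comp11364_c0_seq1), a microtubule subunit, had 15 and 2 reads in Zhongwan 6 and 15 and 0 reads in Zhewan 1, where it was called higher at 25 DAP. With median-ratio scaling 0 of the 7 were called in Zhewan 1.

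The other homeobox unigenes, 4 in number, included 2 that were called lower at 25 DAP in Zhongwan 6 and 0 called in Zhewan 1. BEL1-like homeodomain 7 (comp12234_c0_seq1) had RPKM values of 0.931 and 2.67 in Zhongwan 6 at 25 and 10 DAP and 1.09 and 1.32 in Zhewan 1, ratios of 0.349 (95% exact interval 0.291 to 0.416) and 0.827 (0.665 to 1.03). Homeobox protein 33 (comp11624_c0_seq1) had 2 and 28 reads in Zhongwan 6 at 25 and 10 DAP, a ratio of 0.0613 (0.00708 to 0.243), and 23 and 5 reads in Zhewan 1, with a ratio of 4.13 (1.53 to 13.9). The homeobox-leucine zipper unigene (comp12836_c0_seq1) had ratios of 1.51 (1.19 to 1.93) in Zhongwan 6 and 1.69 (1.38 to 2.08) in Zhewan 1, and BEL1-like homeodomain 2 (comp10503_c0_seq2) had 1.57 (0.861 to 2.97) and 2.85 (1.42 to 6.23). A lower level at 25 DAP in both cultivars, past 2-fold in RPKM, was seen for homeobox protein 2 and for none of these 4. Of the 32662 unigenes with at least 10 reads in every library, 7.42% had it, a share not computed with median-ratio scaling. These 4 therefore do not set homeobox protein 2 apart, which was chosen with its values known.

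The other auxin unigenes, also 4, included 2 called lower at 25 DAP in Zhongwan 6 and 0 called in Zhewan 1, where median-ratio scaling gave 2 called lower. An AUX/IAA unigene (comp10484_c0_seq2), from the family of repressors of auxin response, had 4 and 209 reads in Zhongwan 6 at 25 and 10 DAP and 2 and 14 reads in Zhewan 1. Its ratio of 25 to 10 DAP was 0.0164 (95% exact interval 0.00443 to 0.0427) in Zhongwan 6 and 0.128 (0.0141 to 0.558) in Zhewan 1, the same direction as the auxin efflux carrier. The SAUR-like unigene (comp11051_c0_seq2), of a family of early auxin-responsive genes, had 0 reads at 25 DAP in both cultivars, against 22 reads at 10 DAP in Zhongwan 6 and 9 reads in Zhewan 1, and was at least 8.54-fold and 3.34-fold lower with 0 reads counted as 3.

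The remaining auxin unigenes were nearly level. A second AUX/IAA unigene (comp12081_c0_seq1) had RPKM values of 5.49 and 6.48 in Zhongwan 6 at 25 and 10 DAP and 4.77 and 5.36 in Zhewan 1, ratios of 0.848 (95% exact interval 0.679 to 1.06) and 0.889 (0.679 to 1.16). It shares its best Medicago truncatula hit with comp10484_c0_seq2, the AUX/IAA unigene that was lower at 25 DAP, so entries with the same hit differed in course. Whether they come from the same gene was not tested. A second auxin efflux carrier (comp10641_c0_seq1) had 5 to 11 reads in a library and ratios of 0.780 (0.297 to 2.02) and 0.897 (0.207 to 3.90), too few reads to show a change.

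**Figure D4:**
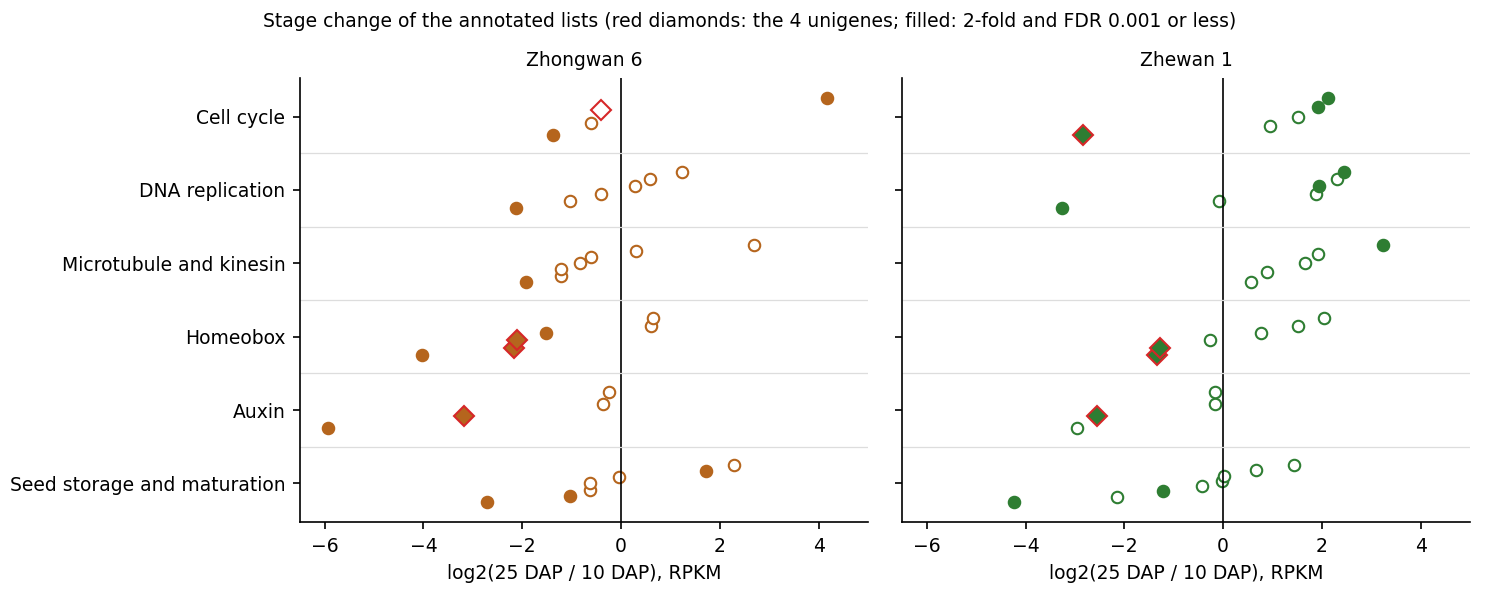
Log2 ratio of 25 DAP to 10 DAP (RPKM) of the listed unigenes in Zhongwan 6 (left) and Zhewan 1 (right), by annotation list, 1 point per unigene; filled points passed 2-fold and a false discovery rate of 0.001, red diamonds are the 4 unigenes described here, and the 5 of 39 unigenes in each cultivar with no read in a library are left out. In Zhewan 1 cyclin D3 stands at -2.84 while the other plotted cell cycle unigenes are above 0.

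Taken as a pool, the 25 other unigenes of the 5 growth lists (cell cycle, DNA replication, microtubule and kinesin, homeobox and auxin) had 2 called higher and 7 lower at 25 DAP in Zhongwan 6, and 6 higher and 1 lower in Zhewan 1. The shares over all unigenes were 9.08% higher and 16.0% lower in Zhongwan 6 and 20.7% higher and 9.42% lower in Zhewan 1, near which the 6 higher of 25 lie. Scaled by median ratios, the counts were 2 higher and 7 lower in Zhongwan 6, and 3 higher and 3 lower in Zhewan 1. Their median log2 ratio was -0.40 in Zhongwan 6, over the 9 with an RPKM of at least 1 in either library, beside -0.26 over all unigenes so filtered. In Zhewan 1 it was 1.24 over 10 unigenes, beside 0.65 over all. The medians with median-ratio scaling were -0.25 in Zhongwan 6, beside -0.11 over all, and 0.67 in Zhewan 1, beside 0.08 over all.

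Between the cultivars, 0 of the pool were called higher and 8 lower in Zhongwan 6 at 25 DAP, where 4.93% and 12.3% of all unigenes were called. At 10 DAP 4 were called higher and 2 lower in Zhongwan 6, beside 10.4% and 3.07% of all unigenes. With median-ratio scaling 1 was higher and 4 lower at 25 DAP, beside 6.81% and 7.73%, and 2 were higher and 3 lower at 10 DAP, beside 5.17% and 5.22%. The higher cyclin D3 level of Zhongwan 6 at 25 DAP was opposite in direction to the 8 calls in the pool, but with median-ratio scaling it had the direction of 1 call, that of minichromosome maintenance 10. Of the 4 other cell cycle unigenes, 3 were called lower in Zhongwan 6 at that stage, and 1 with median-ratio scaling.

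The annotated unigenes nearest in profile were found by the Euclidean distance of log2(RPKM + 1), centred on the mean of the 4 libraries, among 505 or 506 annotated unigenes with at least 100 reads. For cyclin D3 they were a cytochrome P450 of family 82 (comp12514_c0_seq1, distance 0.173), a DUF581 protein (comp11753_c0_seq1, 0.290) and minichromosome maintenance 10 (0.420). For both homeobox sequences they were asparaginyl-tRNA synthetase 2 (comp12976_c0_seq1, 0.178 and 0.245), CTC-interacting domain 4 (comp12925_c0_seq1, 0.252 and 0.264) and the auxin efflux carrier described here (0.378 and 0.329). For the auxin efflux carrier they were a GDSL-like lipase (comp11544_c0_seq1, 0.226), a G-patch protein (comp12996_c0_seq1, 0.252) and an AT-hook protein (comp10930_c0_seq1, 0.271). The 1 added to RPKM flattens a unigene as low as this carrier, so its neighbours need not share its fold change. The G-patch protein had RPKM values of 7.70 and 19.0 in Zhongwan 6 at 25 and 10 DAP and 7.18 and 11.8 in Zhewan 1, a milder change. The cytochrome P450 had RPKM values of 1.74 and 2.77 in Zhongwan 6 at 25 and 10 DAP and 1.01 and 4.68 in Zhewan 1, the same order of libraries as cyclin D3. Cyclin D3 was far from the other 3 unigenes, at distances of 0.863 to 0.999, and the homeobox sequences were 0.0745 apart. With 4 libraries such distances are a description only.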

How the data were processed

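RNA of pooled whole pea seeds was sequenced in 4 libraries, 1 per combination of cultivar (Zhongwan 6, Zhewan 1) and stage (25 and 10 DAP). The authors assembled all reads with Trinity, mapped clean reads to the unigenes with Bowtie 0.12.8 and deposited raw read counts per unigene. The authors divided these by unigene length and counted library total and deposited the result as RPKM; recomputed here, 2 of 309076 values differed by more than 0.1%. Counted reads exceed the clean reads of every library, so some reads were counted on more than one sequence. Without replicate libraries, intervals and floors (3 reads for a count of 0) cover counting error only.

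Ratios are of RPKM, with 95% exact Clopper-Pearson intervals; quotients of ratios have conditional exact intervals. For lists and background, reads were compared by Fisher's exact test (two-sided), adjusted by Benjamini-Hochberg over every unigene with a read in the pair (FDR of 0.001 or less, at least 2-fold), after the study's thresholds, and tested on simulated data. The study followed a published formula for its statistic and reported far fewer unigenes at these thresholds. The simulated counts held counting error only, without variation between samples or reads counted more than once. List medians take unigenes that reach an RPKM of 1 in either library, with fewer than 3 reads set to 3.

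The members and lists were chosen with earlier results of these data known. The lists are annotation words in the 1998 readable rows of the study's Medicago annotation, of which 1121 are in the table and 39 of these are on a list. Named are the 4 members, the other cell cycle, homeobox and auxin efflux unigenes, the most abundant 3 of the other lists and the nearest 3 profiles. No unigene identifier matched the pea RefSeq gene table. Alternatives tried were other scalings, pseudocounts, component sums, thresholds and filters. Computation used SciPy 1.17.1 and pandas 2.3.3 with NumPy 2.4.6 under Python 3.11.15, and plots matplotlib 3.10.9.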

Additional observations from a re-analysis of the deposited data

How the results depend on the processing

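Leaving out a replicate was not possible with 1 library per group. No paired analysis was possible because each group has 1 library and the labels carry no replicate numbers. Of 120 recomputed log2 ratios of the 4 unigenes, 103 stayed within counting error of the reported value and 17 moved. None past 2-fold changed sign, but 2 smaller values did with median-ratio scaling: homeobox protein 2 seq2 between the cultivars at 10 DAP (-0.04, reported 0.35) and the quotient of the auxin efflux carrier (0.08, reported -0.63). The share of homeobox reads on seq1 was recomputed only as a share of summed RPKM, which the lengths of the sequences fix, so it is no check. Among the 103 are component sums of cyclin D3 and the auxin efflux carrier, which have 1 sequence each and so could not move. With log2(RPKM + 1), 1 of 4 unigenes was at least 2-fold lower at 25 DAP in Zhewan 1 (4 in RPKM) and 0 were higher in Zhongwan 6 at 25 DAP (1 in RPKM). At 10 DAP, 1 of 4 (cyclin D3) was lower in Zhongwan 6 both with median-ratio scaling and with totals that leave out the 100 most abundant unigenes.

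For the 25 other growth unigenes at 25 DAP in Zhongwan 6, 4 were higher by 2-fold alone and 0 with a minimum RPKM of 1 (2 reported), and 4 were lower both at 4-fold and with that minimum (7 reported). In Zhewan 1, 13 were higher by 2-fold alone and 3 with median ratios (6 reported), and 2 and 3 were lower (1 reported). Between the cultivars at 25 DAP, 1 was higher by 2-fold alone and 1 with median ratios (0 reported), and 3 at 4-fold, 13 by 2-fold alone, 4 with median ratios and 5 with the minimum RPKM were lower (8 reported). At 10 DAP, 1 at 4-fold, 10 by 2-fold alone and 2 with median ratios were higher (4 reported), and 1 at 4-fold, 4 by 2-fold alone and 1 with the minimum RPKM were lower (2 reported). Their median log2 ratio without a filter, with log2(RPKM + 1) and with median ratios was -0.60, -0.20 and -0.25 in Zhongwan 6, 1.52, 0.73 and 0.67 in Zhewan 1, and 0.93, 0.45 and 0.26 between the cultivars at 10 DAP. At 25 DAP it was -0.66 with log2(RPKM + 1) and -0.80 with median ratios. The causes were not tested.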
